A study of Rattus norvegicus with 20 samples.

Results

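The genes described here are markers of neurons of the upper layers of the cerebral cortex, measured in neurons of rats aged 2 years whose axons were sprouting after a stroke. The set held 8 genes: Lhx2, Pou3f2, Pou3f3, Cux1, Cux2, Rorb, Cartpt and Mef2c. Their probes were found by gene symbol, with older symbols and accessions translated through RefSeq, and 7 of the 8 genes had 1 probe each among the 41012 gene probes of the array. Mef2c was matched by no probe and is not analysed here. A set of 3 probes, some of which the array files describe as similar to myocyte enhancer factor 2C, belonged to Mef2a by symbol or accession and were treated as that relative.

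The cortex is built in layers, and neurons of the upper layers mainly connect to other cortical areas, while those of the deep layers project below the cortex. Most of the genes of the set encode transcription factors that are used to tell upper-layer neurons from deep-layer ones. Cartpt encodes a secreted neuropeptide precursor instead.

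Every animal had received cholera toxin B coupled to either of 2 Alexa dyes, injected one after the other at the same site of the peri-infarct cortex, so that neurons with axons there took up the tracer present at the time. One cohort of 5 rats got the later tracer after a survival of 21 days and another cohort of 5 rats after 7 days, and these times name the days used here. About 300 neurons of each kind, labelled as sprouting and as non-sprouting, were laser-captured 7 days after the later tracer. The pools were small, and RNA went through 2 rounds of T7 amplification, so differences between pools also carry the spread of sampling and amplification. The labels name no genetic change, and both kinds of neuron came from brains with a stroke, so an uninjured brain is not part of the comparison.

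Both pools of an animal were hybridised together on 2 Agilent arrays, one with the sprouting pool in Cy5 (forward) and one with exchanged dyes (dye-swap), and the pair was counted as 1 replicate. Across the 20 arrays the red channel measured 69.8% to 95.5% of gene probes well above background, and the green channel 20.8% to 95.2%. The forward and dye-swap ratios of an animal correlated across probes at 0.0464 to 0.89, lowest in day 21 replicate 4. The dye-swap array of that animal also had the lowest share of green probes well above background, 20.8%. Ratios are given as log2 of sprouting over non-sprouting signal, levels as log2 normalised intensity of 1 probe, and a level is never compared between probes. The summed level of a marker list is the log2 of its tested probes' unlogged levels added together, so the brightest probes weigh most. Tests used limma across 34224 probes with Benjamini-Hochberg adjustment. Both days shared a fit, so the standard error and p of a single day rest on the pooled spread of both days.

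The captured pools carried the markers of cortical neurons. All 6 pan-neuronal markers (Rbfox3, Snap25, Syt1, Nefl, Tubb3 and Stmn2) and all 3 glutamatergic markers with a probe (Slc17a7, Camk2a and Nrgn) were well above background on at least 13 of the 20 arrays in each kind of neuron. Markers of other cells were also detected: all 8 interneuron, all 8 astrocyte, all 9 oligodendrocyte, all 11 microglia and macrophage and 5 of 6 endothelial markers were well above background on most arrays, and Pecam1, on 5 of 20 sprouting and 8 of 20 non-sprouting channels, was the exception.

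None of the 6 upper-layer genes that could be tested differed between sprouting and non-sprouting neurons after adjustment, at day 21 or at day 7. The same held for all probes: 0% of the 34224 tested probes had an adjusted p under 0.05 at day 21, at day 7, for the difference of the ratio between days, for the mean of both days, or for the level at day 21 against day 7 in either kind of neuron. Without adjustment, 1 of the 6 genes, Cartpt, had p under 0.05 at day 21, where 4.75% of all probes did, and 0 of the 6 did at day 7, where 6.05% of all probes did. For the mean of both days 1 of the 6 genes, Cux2, had p under 0.05, against 6.42% of all probes. Cux2 met the rule for being tested only through its non-sprouting channels, so its ratio below 0 is not independent of that rule. The median ratio of the 6 genes was -0.0147 at day 21 and -0.0949 at day 7, beside medians of -0.00146 and -0.0019 over all probes. In a bulk pool, fewer neurons of a kind and less RNA per neuron cannot be told apart.

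**Figure D1:**
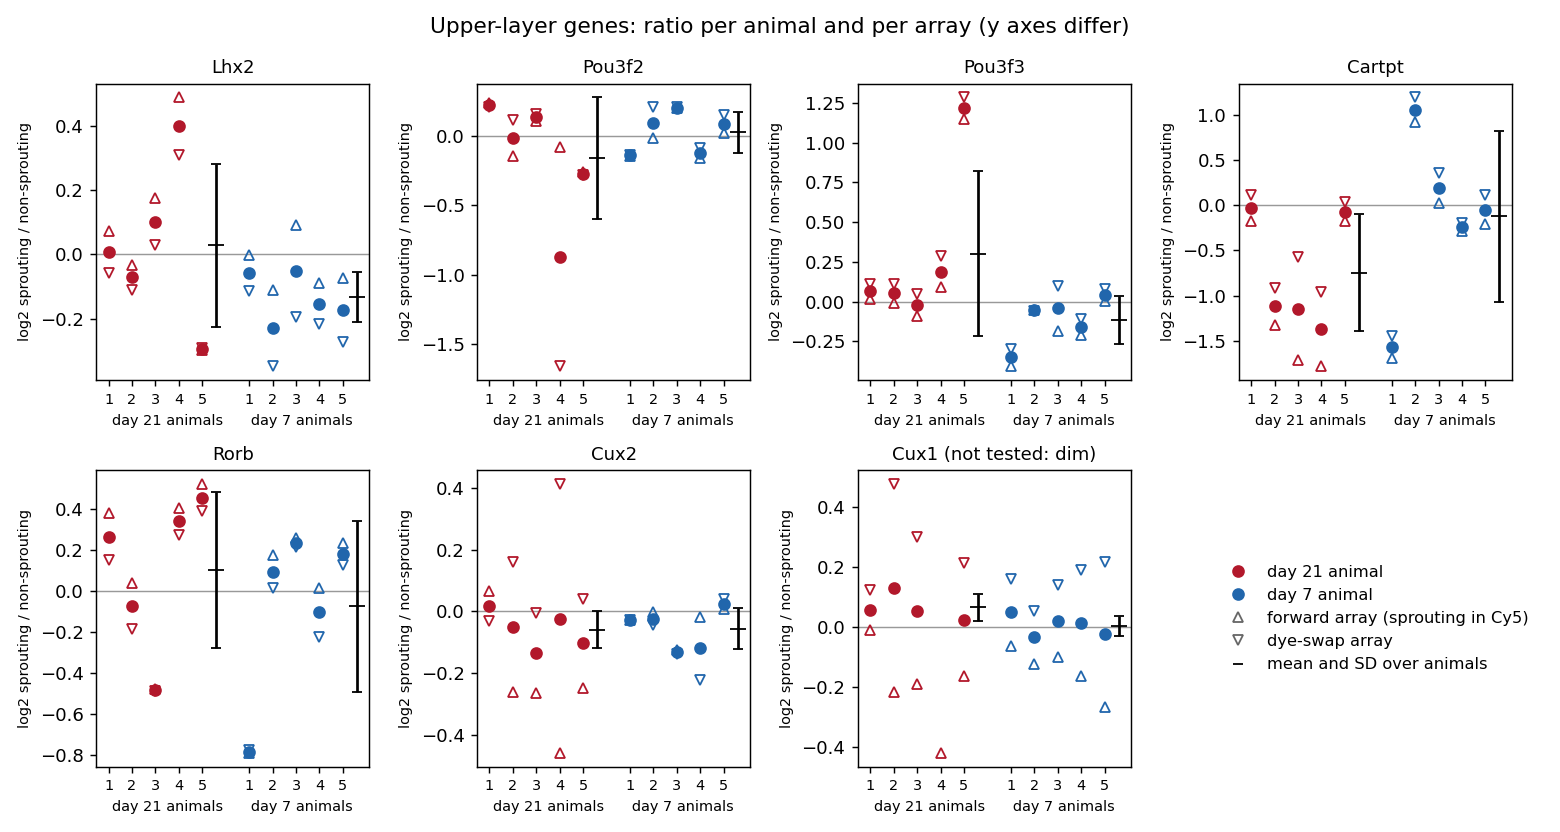
Log2 ratio of sprouting over non-sprouting signal (y axis, scale differs between panels) for each upper-layer gene in each animal (x axis, replicates 1 to 5 of day 21 on the left and of day 7 on the right). Filled circles are animals, open triangles their forward and dye-swap arrays, and black bars the mean and SD. Cartpt lay below 0 in all 5 day 21 animals and Lhx2 in all 5 day 7 animals, while Pou3f3 in day 21 replicate 5 stood at 1.22, far above the other animals.

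Cartpt encodes the precursor of the cocaine- and amphetamine-regulated transcript peptides, which act in feeding and reward. It had the lowest mean ratio of the set at day 21. Its promoter is shown because that ratio was the largest mean difference of the set in either direction. The 250 bases before its start site lie on the minus strand at chr2:32991236-32991485 in the RefSeq annotation of GRCr8. Capitals mark a cAMP response element, searched as TGACGTCA, a palindrome that reads the same on both strands.
Cartpt promoter: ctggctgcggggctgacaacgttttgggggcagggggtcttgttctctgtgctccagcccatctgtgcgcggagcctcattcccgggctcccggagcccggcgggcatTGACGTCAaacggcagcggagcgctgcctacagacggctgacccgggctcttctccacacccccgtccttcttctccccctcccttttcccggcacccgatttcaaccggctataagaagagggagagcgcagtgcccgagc
The element began 142 bases before the start site. It was found in 1.59% of the 33469 RefSeq promoter windows of the same length, and in 1 of the 6 genes of the set that had a window. The match describes the sequence only.

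At day 21 the Cartpt ratios were -0.028, -1.12, -1.14, -1.37 and -0.070 in replicates 1 to 5. All 5 animals were below 0, with 3 of them at -1.12 or lower and the other 2 near 0. Of their arrays 8 were below 0 and 2 above, the dye-swap arrays of replicates 1 (0.12) and 5 (0.038). Being below 0 in 5 of 5 animals at day 21 was met by 3.25% of all probes. The mean was -0.75 ± 0.64 (SD, n = 5), with a standard error of 0.32 and a limma p of 0.0417, which adjustment over all probes turned into 0.923. The exact two-sided sign-flip test over 5 animals gave p = 0.062, the smallest it can give.

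Cartpt levels at day 21 in sprouting neurons were 7.26, 7.43, 7.15, 7.19 and 6.98, against 7.29, 8.55, 8.30, 8.56 and 7.05 in non-sprouting neurons of the same animals. The 3 animals with low ratios were those with the highest non-sprouting levels, and the sprouting levels spanned a narrower range. The probe was well above background on 10 of 10 non-sprouting channels but on 7 of 10 sprouting channels at day 21. The channels that failed were both of replicate 3 and the dye-swap channel of replicate 4, so the low sprouting levels and the ratios of those 2 animals are close to the background. The mean ratio was -1.03 on the forward arrays and -0.46 on the dye-swap arrays. With Agilent's own log ratio in place of the loess ratio it was -1.38.

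At day 7 the Cartpt ratios were -1.56, 1.06, 0.19, -0.24 and -0.051. The animals pointed both ways, with the widest spread of the set. Levels were 6.84, 8.71, 6.97, 9.18 and 7.10 in sprouting neurons, against 8.41, 7.65, 6.79, 9.42 and 7.15 in non-sprouting neurons. The levels of both pools thus varied between animals by more than the pools differed on average. The mean was -0.12 ± 0.95 (SD, n = 5), and without replicate 1 it was 0.24.

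The Cartpt ratio was lower at day 21 than at day 7 by a difference of -0.62, with a standard error of 0.45 and an adjusted limma p of 0.925. It was -0.98 without day 7 replicate 1 and -0.33 without day 7 replicate 2. Inside the only scan batch with both days, of 1 day 21 and 2 day 7 animals, the ratio was -0.028 at day 21 and -0.15 at day 7, a difference of 0.12 in the other direction. The ratios of the days overlapped, and the exact two-sided permutation of the days gave p = 0.302. Across cohorts the level in sprouting neurons was 7.20 ± 0.16 at day 21 and 7.76 ± 1.09 at day 7, and in non-sprouting neurons 7.95 ± 0.72 at day 21 and 7.88 ± 1.05 at day 7 (SD, n = 5 each). The order of the 4 means, from low to high, was sprouting day 21, sprouting day 7, non-sprouting day 7 and non-sprouting day 21. No neighbours in this order differed by more than their spread.

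Markers of other cells are given for the same day, and none of their probes passed after adjustment. All 8 astrocyte markers had a mean ratio above 0 at day 21, with a list median of 0.128, and the list's median was above 0 in 5 of 5 animals. Their summed level was 14.83 to 14.97 in sprouting and 14.44 to 14.83 in non-sprouting neurons. Of the 5 endothelial markers tested, 1 was above 0, and the list's median was below 0 in 5 of 5 animals. Their summed level was 9.25 to 10.86 in sprouting and 9.38 to 11.13 in non-sprouting neurons. The other lists were less one-sided at day 21. The list's median was above 0 in 2 of 5 animals for interneuron and in 2 of 5 for oligodendrocyte markers. For microglia and macrophage markers it was above 0 in 1 of 5 animals. Mean ratios were above 0 for 3 of 8 interneuron, 6 of 9 oligodendrocyte and 3 of 11 microglia and macrophage markers. The part of these cells in the Cartpt ratio was not tested.

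**Figure D2:**
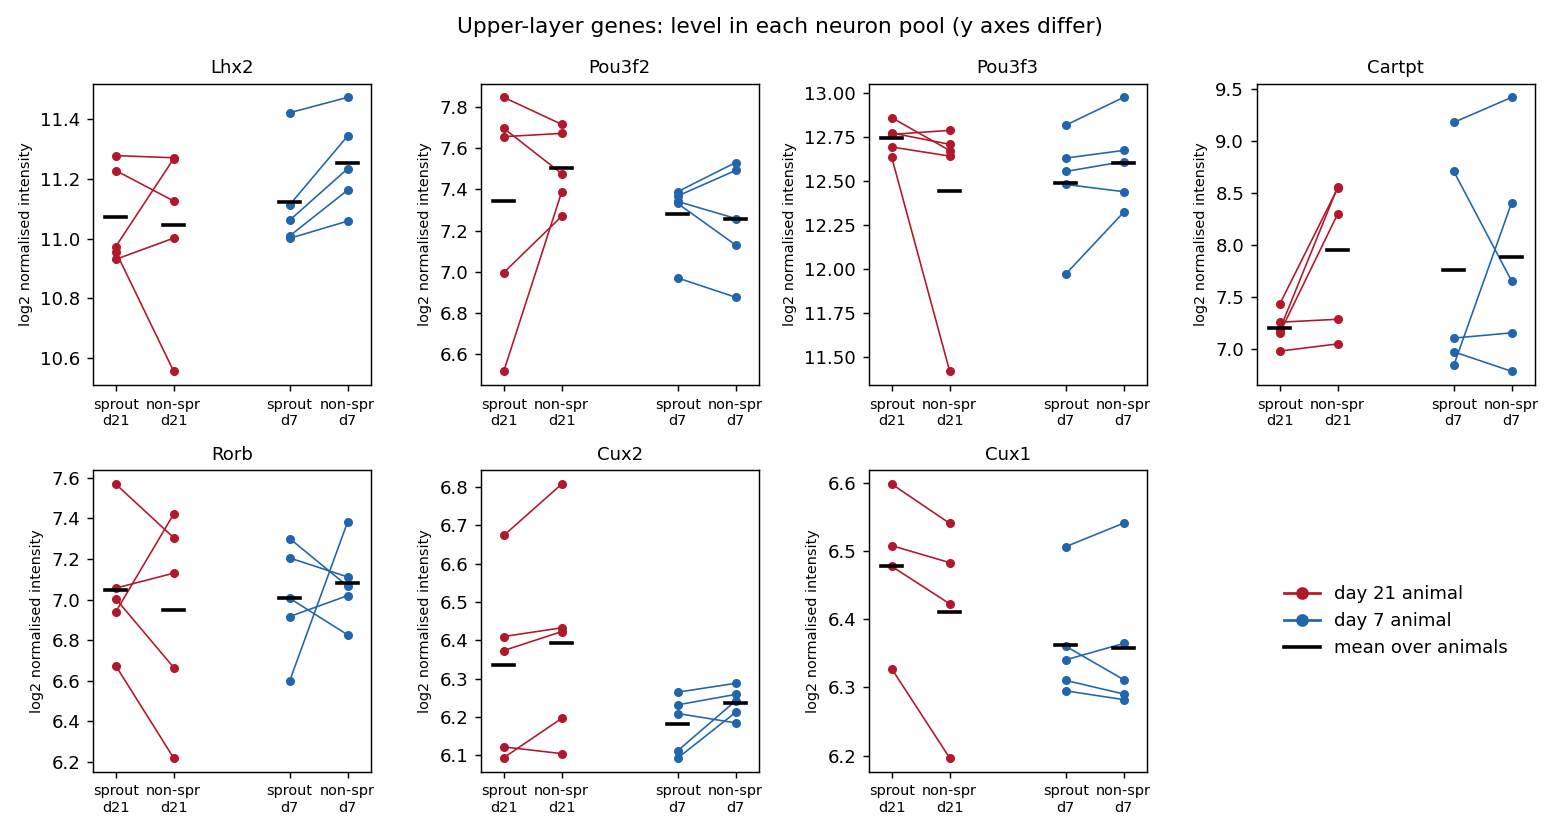
Log2 normalised intensity (y axis, scale differs between panels) of each upper-layer gene in the sprouting and non-sprouting pool of each animal (x axis: sprouting then non-sprouting at day 21, then the same at day 7). Lines join the pools of an animal and black bars are means. In Cartpt the non-sprouting pools of 3 day 21 animals lie between 8.30 and 8.56 while all 5 sprouting pools lie between 6.98 and 7.43, and in Pou3f3 the non-sprouting pool of day 21 replicate 5 lies at 11.42, below all others.

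Lhx2 encodes a LIM-homeodomain transcription factor that patterns the developing cortex. It was well above background in every channel of all 20 arrays. At day 21 its ratios were 0.0073, -0.071, 0.10, 0.40 and -0.29, and at day 7 they were -0.057, -0.23, -0.052, -0.15 and -0.17. All 5 day 7 animals were below 0, as were 9 of the 10 day 7 arrays, while the day 21 animals lay on both sides of 0. Being below 0 in 5 of 5 animals at day 7 was met by 5.46% of all probes.

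The mean Lhx2 ratio was 0.029 ± 0.25 at day 21 and -0.13 ± 0.077 at day 7 (SD, n = 5 each). The day 7 shift had a standard error of 0.078, a limma p of 0.12 and an adjusted p of 0.841. The fit pooled both days, so that error and p also carry the wider day 21 spread. An exact sign-flip test gave p = 0.062, the smallest possible for 5 animals. The day 7 mean was -0.037 on the forward arrays and -0.23 on the dye-swap arrays, so its size differed with the dye. The difference between days was 0.16 with a standard error of 0.11 (adjusted limma p = 0.925), and it was 0.069 without day 21 replicate 4, where the day 21 mean became -0.064. Inside the scan batch with both days the difference was 0.17.

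Lhx2 levels were 11.07 ± 0.17 in sprouting and 11.04 ± 0.29 in non-sprouting neurons at day 21, and 11.12 ± 0.17 in sprouting and 11.25 ± 0.16 in non-sprouting neurons at day 7 (SD, n = 5 each). From low to high the order was non-sprouting day 21, sprouting day 21, sprouting day 7 and non-sprouting day 7. Neighbours overlapped, but the day 7 pools come from the same animals, where the paired ratio of -0.13 was larger than its SD of 0.077.

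Pou3f3 and Pou3f2, also called Brn1 and Brn2, encode POU-domain transcription factors that in mouse act together in the production and migration of upper-layer neurons. The Pou3f3 probe was well above background on all arrays. Its ratios were 0.065, 0.052, -0.023, 0.19 and 1.22 at day 21, and -0.35, -0.057, -0.044, -0.16 and 0.041 at day 7. The fifth day 21 animal stood apart from all others, on its forward array (1.15) as on its dye-swap array (1.29). Its sprouting level, 12.63, was close to those of the other day 21 animals (12.69 to 12.86), and its non-sprouting level, 11.42, was below theirs (12.64 to 12.79).

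The mean Pou3f3 ratio was 0.30 ± 0.52 at day 21 and -0.11 ± 0.15 at day 7 (SD, n = 5 each). Neither passed, with adjusted limma p of 0.923 at day 21 and 0.932 at day 7. Without day 21 replicate 5 the day 21 mean was 0.070. The difference between days was 0.41 with a standard error of 0.22, an unadjusted limma p of 0.0841 and an adjusted p of 0.925. The exact two-sided permutation of the days gave p = 0.0159, where 0.00794 is the smallest possible, as 1 of 35 exact tests run on the genes of the set. Without day 21 replicate 5 the difference was 0.18. Inside the scan batch with both days the ratio was 0.065 at day 21 and -0.059 at day 7, a difference of 0.12.

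In day 21 replicate 5 the ratios of the 6 pan-neuronal markers ran from -2.03 to 1.94 with a median of -0.464. Their summed level was 15.31 in the sprouting and 14.74 in the non-sprouting pool of that animal, so the sum and the median pointed opposite ways. In the other day 21 animals the non-sprouting sum was higher, at 15.34 to 15.82. The median ratio of the 8 astrocyte markers was 0.24 in that animal, with a summed level of 14.83 in sprouting and 14.44 in non-sprouting neurons. For the 9 oligodendrocyte markers the median was 0.186, with sums of 15.48 in sprouting and 14.6 in non-sprouting neurons. The 8 interneuron markers went the other way, with a median of -0.257 and sums of 14.88 and 15.57. Medians were -0.0518 for the microglia and macrophage list and -0.0913 for the endothelial list. The part of these cells in the Pou3f3 ratio was not tested.

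Pou3f3 levels were 12.75 ± 0.086 in sprouting and 12.45 ± 0.58 in non-sprouting neurons at day 21, and 12.49 ± 0.32 in sprouting and 12.60 ± 0.25 in non-sprouting neurons at day 7 (SD, n = 5 each). The order was non-sprouting day 21, sprouting day 7, non-sprouting day 7 and sprouting day 21. Neighbours did not differ beyond their spread, and the change in sprouting neurons between days was 0.25 with a standard error of 0.15 and an adjusted limma p of 0.405. With levels scaled to the 75th percentile that change was -0.12, so its direction depended on the scaling.

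Pou3f2 had ratios of 0.22, -0.016, 0.13, -0.87 and -0.27 at day 21, and -0.14, 0.094, 0.20, -0.12 and 0.083 at day 7. The value of -0.87 in day 21 replicate 4 came from arrays that disagreed. They gave -0.084 on the forward and -1.66 on the dye-swap array. On that dye-swap array the sprouting signal, 187.9, lay below its local background of 222.5. The mean was -0.16 ± 0.44 at day 21 and 0.023 ± 0.15 at day 7 (SD, n = 5 each). Adjusted limma p was 0.924 at day 21 and 0.985 at day 7. Without day 21 replicate 4 the day 21 mean was 0.015, and without day 7 replicate 3 the day 7 mean was -0.022.

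The Pou3f2 difference between days was -0.18 with a standard error of 0.19 (adjusted limma p = 0.925), and without day 21 replicate 4 it was -0.0071. Inside the scan batch with both days it was 0.24, in the other direction. Pou3f2 levels were 7.34 ± 0.57 in sprouting and 7.50 ± 0.19 in non-sprouting neurons at day 21, and 7.28 ± 0.17 in sprouting and 7.26 ± 0.27 in non-sprouting neurons at day 7 (SD, n = 5 each). Non-sprouting day 7 was lowest, followed by sprouting day 7, sprouting day 21 and non-sprouting day 21, and neighbours overlapped. Over the 10 animals the ratios of the pair of POU genes had a Pearson correlation of -0.295 and a Spearman correlation of -0.176.

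Rorb encodes an orphan nuclear receptor that marks layer IV. Its probe was well above background on 7 of 10 sprouting and 8 of 10 non-sprouting channels at day 21. At day 7 it was so on 10 of 10 sprouting and 9 of 10 non-sprouting channels. Its ratios were 0.26, -0.074, -0.48, 0.34 and 0.46 at day 21, and -0.78, 0.094, 0.23, -0.10 and 0.18 at day 7. Both days held 3 animals above 0 and 2 below. The non-sprouting channels that failed at day 21 were both of replicate 5, so its ratio of 0.46, the highest, is close to the background. The forward and dye-swap arrays of the most extreme animals were close to each other: -0.79 and -0.78 in day 7 replicate 1, and -0.476 and -0.489 in day 21 replicate 3. In those animals the dye orientation changed the value little.

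The mean Rorb ratio was 0.10 ± 0.38 at day 21 and -0.076 ± 0.42 at day 7 (SD, n = 5 each), with adjusted limma p of 0.962 at day 21 and 0.958 at day 7. Without day 7 replicate 1 the day 7 mean was 0.10 and the difference between days, 0.18 with a standard error of 0.23, became -0.00087. Inside the scan batch with both days the difference was 0.23. Day 7 replicate 1 was also the animal with the lowest day 7 ratio of Cartpt, Pou3f3 and, narrowly, Pou3f2 (-0.141, against -0.124 in replicate 4). In that animal the summed level of the 11 microglia and macrophage markers was 15.48 in sprouting and 14.67 in non-sprouting neurons, the highest of the day 7 animals. The others had 13.05 to 13.4 in sprouting and 12.83 to 13.64 in non-sprouting neurons. The ratios of these markers in that animal ran from -0.461 to 4.21 with a median of 0.111, and the median of the 5 endothelial markers was 0.289. The part of these cells in the ratios of that animal was not tested.

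Rorb levels were 7.05 ± 0.33 in sprouting and 6.95 ± 0.50 in non-sprouting neurons at day 21, and 7.01 ± 0.27 in sprouting and 7.08 ± 0.20 in non-sprouting neurons at day 7 (SD, n = 5 each). From low to high the order was non-sprouting day 21, sprouting day 7, sprouting day 21 and non-sprouting day 7, with no neighbours apart by more than their spread.

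Cux1 and Cux2 encode homeodomain transcription factors of layers II to IV that in mouse promote dendrite branching and spine formation. Both probes were dim. Cux2 was well above background on 4 of 10 sprouting and 8 of 10 non-sprouting channels at day 21, and on 5 of 10 sprouting and 9 of 10 non-sprouting channels at day 7. The sprouting channels of Cux2 met the detection rule on neither day, so it was tested through its non-sprouting channels alone. Its ratios were 0.018, -0.049, -0.13, -0.023 and -0.10 at day 21, and -0.027, -0.023, -0.13, -0.12 and 0.024 at day 7. On each day 4 of 5 animals were below 0, and none was below -0.134.

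The mean Cux2 ratio was -0.058 ± 0.061 at day 21 and -0.055 ± 0.067 at day 7 (SD, n = 5 each). Over both days the mean was -0.057 with a standard error of 0.025, a limma p of 0.0486 and an adjusted p of 0.776. At day 21 the forward arrays averaged -0.23 and the dye-swap arrays 0.12, so the orientations pointed opposite ways, and on dye-swap arrays alone the mean over both days was 0.019. The difference between days was -0.0032 with a standard error of 0.051 (adjusted limma p = 0.992), and 0.065 inside the scan batch with both days.

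Cux2 levels were 6.33 ± 0.24 in sprouting and 6.39 ± 0.27 in non-sprouting neurons at day 21, and 6.18 ± 0.076 in sprouting and 6.24 ± 0.040 in non-sprouting neurons at day 7 (SD, n = 5 each). The order rose from sprouting day 7 over non-sprouting day 7 and sprouting day 21 to non-sprouting day 21, and neighbours overlapped.

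Cux1 did not reach the detection rule and was left out of the limma fit. It was well above background on 3 of 10 sprouting and 5 of 10 non-sprouting channels at day 21, and on 6 of 10 of each at day 7. An outlying spot removed day 21 replicate 4, so its day 21 values come from 4 animals. The ratios were 0.058, 0.13, 0.055 and 0.025 at day 21 in replicates 1, 2, 3 and 5, and 0.049, -0.035, 0.020, 0.013 and -0.024 at day 7.

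The exact two-sided sign-flip test gave p = 0.125 at day 21, the smallest that 4 animals allow, and p = 0.8125 at day 7. The exact two-sided permutation of the days gave p = 0.0397 for the ratio, unadjusted for the 35 exact tests run on the set.

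In all 9 animals with both arrays the Cux1 ratios of the forward and dye-swap array had opposite signs. Forward arrays averaged -0.20 and dye-swap arrays 0.28 at day 21, and forward arrays averaged -0.14 and dye-swap arrays 0.15 at day 7. The day 21 forward mean includes replicate 4 (-0.42), which the dye-swap mean lacks. Levels were 6.48 ± 0.11 in sprouting and 6.41 ± 0.15 in non-sprouting neurons at day 21 (SD, n = 4 each), and 6.36 ± 0.084 in sprouting and 6.36 ± 0.11 in non-sprouting neurons at day 7 (SD, n = 5 each). The values overlapped between all 4 pools.

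Set side by side, the ratio of the days overlapped in all 6 tested genes, and animals of the days were apart in 0.795% of all probes. The difference between days reached an unadjusted p under 0.05 in 0 of the 6 genes, against 4.12% of all probes. For levels at day 21 against day 7, 0 of the 6 genes had an unadjusted p under 0.05 in sprouting neurons, where 15.3% of all probes did. The same count was 0 of 6 in non-sprouting neurons, where 15.6% of all probes did. The median level of all probes shifted by -0.0707 in sprouting and -0.0678 in non-sprouting neurons, while the 6 genes had median shifts of 0.0527 in sprouting and -0.0346 in non-sprouting neurons.

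Among the 15 pairs of genes in the fit, Pearson correlations of the ratio over 10 animals ran from -0.619 for Lhx2 and Cartpt to 0.623 for Pou3f3 and Rorb. Without day 7 replicate 1 these were -0.71 and 0.553. Spearman correlations ran from -0.43 for Lhx2 and Cartpt to 0.806 for Pou3f3 and Rorb, with 0.624 for Pou3f2 and Cartpt. All ratios of an animal share its pools and arrays, so the values are descriptions.

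The named gene whose ratio was most like that of each tested gene, among 11364 other genes measured in all 10 animals, was found by Pearson correlation. For Pou3f3 it was Inpp4a (0.995), for Pou3f2 Neurog2 (0.971), for Lhx2 Bckdha (0.957), for Rorb Cyp7b1 (0.945), for Cartpt Lifr (0.925) and for Cux2 Rhox9 (0.895). Without the 2 animals whose ratio lay furthest from the gene's median, the values were 0.901 for Inpp4a, 0.865 for Neurog2, 0.944 for Bckdha, 0.834 for Cyp7b1, 0.915 for Lifr and 0.853 for Rhox9. Each is the highest of 11364 values from the same arrays and carries no test.

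**Figure D3:**
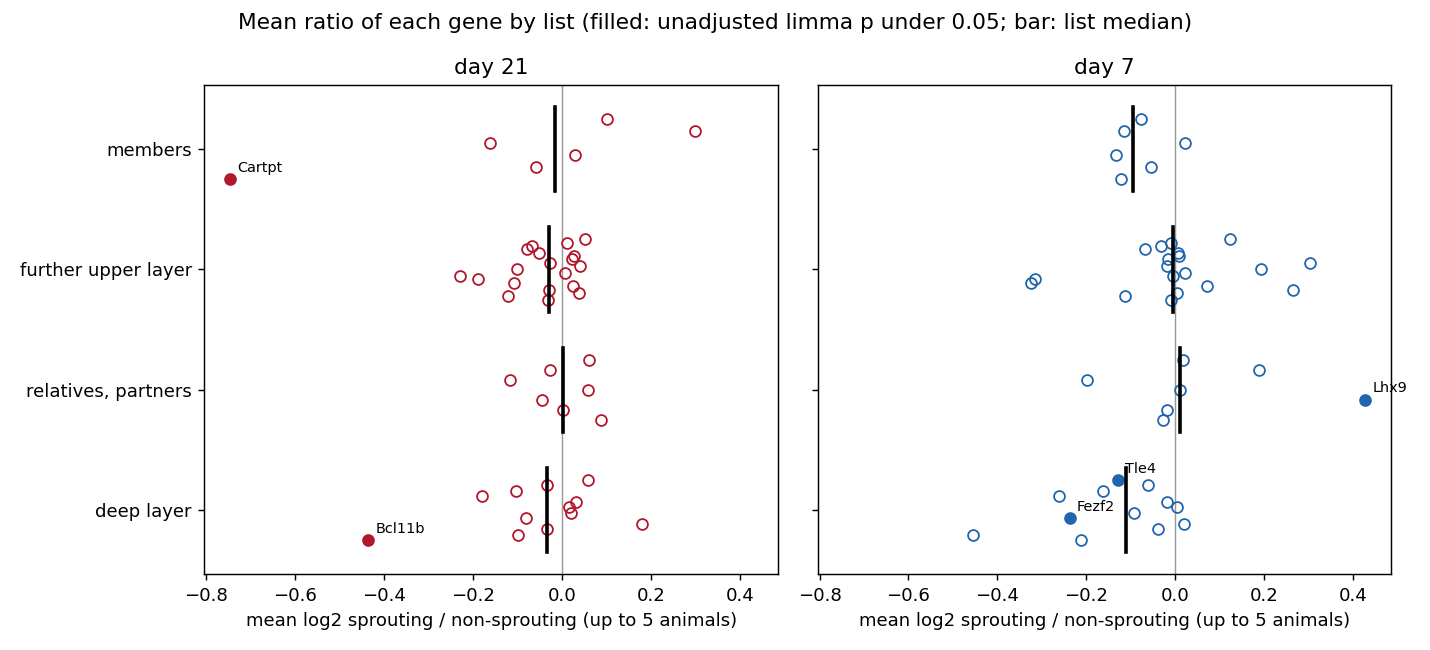
Mean log2 ratio of sprouting over non-sprouting signal in up to 5 animals (x axis) for each tested gene of the set and of 3 comparison lists (rows), at day 21 on the left and day 7 on the right. Each circle is a gene, filled where the unadjusted limma p was under 0.05, and black bars are list medians. At day 7 the deep-layer genes lie mostly left of 0, with a median of -0.11, and the further upper-layer genes lie around 0.

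A further list of 20 upper-layer genes gave 19 tested ones, by the brightest probe of each gene. At day 21, 8 of 19 had a mean ratio above 0 with a median of -0.0295, and at day 7, 9 of 19 with a median of -0.00435. Over all probes 49.1% were above 0 at day 21 and 48.8% at day 7. None had an unadjusted p under 0.05 on a single day, where 4.75% of all probes did at day 21 and 6.05% at day 7. Over both days 1 of 19 did, beside 6.42% of all probes. It was Lamp5, which encodes a lysosome-associated membrane protein found in neurons. Lamp5 had a mean of -0.25 with a standard error of 0.11, a limma p of 0.045 and an adjusted p of 0.77. Its ratio was -0.19 ± 0.55 at day 21 and -0.32 ± 0.085 at day 7 (SD, n = 5 each), above 0 in 1 of 5 animals at day 21 and in 0 of 5 at day 7.

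Of 9 relatives and partners of the set, 7 were tested, and 4 of 7 had a mean ratio above 0 on each day. Without adjustment, p was under 0.05 for 1 of 7 at day 7, beside 6.05% of all probes, and for 0 of 7 at day 21, beside 4.75%. For the difference between days it was 1 of 7, beside 4.12%. Mef2a, a MADS-box factor related to Mef2c, had a ratio of 0.059 at day 21 and 0.010 at day 7 with a standard error of 0.11 each. These values came from a probe that the array files describe as similar to myocyte enhancer factor 2C. Ldb1 and Ldb2, which bind LIM-homeodomain factors, had ratios of 0.088 and 0.0031 at day 21 and -0.028 and -0.018 at day 7. Lhx9, a LIM-homeodomain factor related to Lhx2, had a ratio of -0.044 ± 0.43 at day 21 and 0.43 ± 0.30 at day 7 (SD, n = 5 each). All 5 day 7 animals were above 0 and limma gave p = 0.0165 at day 7, which adjustment turned into 0.798. The share of all probes above 0 in all 5 day 7 animals was not counted. The difference between days, -0.47 with a standard error of 0.21, had an adjusted limma p of 0.925.

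Deep-layer genes were the nearest contrast. Of 17 listed, 12 were tested: 5 of 12 had a mean ratio above 0 at day 21, with a median of -0.0343, and 2 of 12 at day 7, with a median of -0.11. For the difference between days 11 of 12 were above 0, against 49% of all probes. Without adjustment, p was under 0.05 for 1 of 12 genes at day 21 and 2 of 12 at day 7, beside 4.75% and 6.05% of all probes, and for none after adjustment. Bcl11b, also called Ctip2, a zinc-finger factor of subcortically projecting neurons, had a ratio of -0.44 ± 0.42 at day 21 (SD, n = 4, with replicate 4 missing) and -0.21 ± 0.26 at day 7 (SD, n = 5). It was above 0 in 0 of 4 animals at day 21 (limma p = 0.0162, adjusted p = 0.923), and without replicate 5 the day 21 mean was -0.24. Its mean over both days was -0.32 (limma p = 0.00969, adjusted p = 0.716).

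Fezf2, which directs the fate of such neurons, had a ratio of -0.080 ± 0.21 at day 21 and -0.24 ± 0.23 at day 7 (SD, n = 5 each). Its day 7 limma p was 0.0244 and the adjusted p 0.811, and its mean over both days was -0.16 (limma p = 0.031, adjusted p = 0.767). Tle4, a co-repressor of corticothalamic neurons, had a ratio of 0.059 ± 0.092 at day 21 and -0.13 ± 0.086 at day 7 (SD, n = 5 each), above 0 in 4 of 5 animals at day 21 and in 0 of 5 at day 7. Its difference between days was 0.19 with a standard error of 0.061 (limma p = 0.0117, adjusted p = 0.925). The upper-layer and deep-layer lists were not tested against each other.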

How the data were processed

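The authors quantified 20 arrays with Agilent Feature Extraction (9.1.3.1 per the file headers). Linear spot intensity and local background were taken from the deposited scanner output with its flags for outlying, saturated and well-measured spots. Feature Extraction's deposited log10 ratio, already corrected for background and dye by that software, was an alternative. A table of log2 ratios deposited by the authors was another: its columns correlated with the loess values at 0.904 to 1.0, with slopes of 0.538 to 1.13 and medians of -0.0119 to 0.0122, so its direction was red over green, its scale only near log2, and its normalization and centring stay unknown. That file had 20 other columns, left out here.

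In limma 3.58.1 (R 4.3.3, with data.table of version 1.17.8), normexp with an offset of 50 corrected the background, followed by loess within arrays with control spots at weight 0. Outlying spots (88 to 4558 per array) were set to missing. Forward and dye-swap ratios were averaged, and both were needed. Levels were Aquantile-normalized. Probes entered the test when, in the channel of either kind of neuron, both arrays were well above background in 3 or more animals of the same day. The fit was lmFit and eBayes with both days together. Single values also had two-sided exact sign-flip tests within a day and exact permutations of the days. RefSeq gave names to 10658 probes by accession, 4587 by symbol and 3877 by synonym. Coordinates come from RefSeq's GRCr8 only, since the array files name no build.

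On simulated data of 28613 probes with 200 changed, the day 21 test recovered 77.6%, 97% and 100% of shifts of 0.5, 1 and 2 (log2). The difference between days recovered 58.2%, 86.6% and 100% of them, and the level in sprouting neurons between days 10.4%, 64.2% and 95.5%. Simulated probes were independent of each other, with normally distributed noise of each probe's own spread and no single arrays that stood apart. The shares are averages over the changed probes. In the real data the day 21 standard error was 0.32 for Cartpt, 0.16 for Rorb, 0.15 for Pou3f3 and 0.13 for Pou3f2. It was 0.078 for Lhx2 and 0.036 for Cux2. The shares therefore do not tell how often a shift in a given gene of the set would be found.

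Genes named in the text were every probe of the set, the gene most like each by correlation, and genes of the further upper-layer, relatives and deep-layer lists with an unadjusted p under 0.05 for a ratio, up to 4 per list and comparison. Cell type markers had a list of their own and were named only to check the pools. Lamp5, Lhx9, Bcl11b, Fezf2 and Tle4 met that rule, and Mef2a, Ldb1 and Ldb2 were named after their values were seen. The genes of the set and the lists were chosen with earlier results of these data known.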

Additional observations from a re-analysis of the deposited data

Results flagged for a closer look

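In each gene of the set, the ratio and the level of both kinds of neuron were checked within each day for an animal that stood apart, 42 groups in all, of which chance flags about 1 in 20. A gap to the nearest animal over 0.71 of the range was taken as apart, and 4 groups met this. Pou3f3 in day 21 replicate 5 had a ratio of 1.22, with the other animals between -0.023 and 0.19. The non-sprouting level of Pou3f3 in the same animal was 11.42, with the others between 12.64 and 12.79. The sprouting level of Lhx2 in day 7 replicate 3 was 11.42, with the others no higher than 11.11. The sprouting level of Pou3f2 in day 7 replicate 2 was 6.97, with the others between 7.33 and 7.39.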

How the results depend on the processing

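The counts of passing probes were 0 in all 6 comparisons and were 0 again in most alternatives, with these exceptions, whose cause was not tested. Fitting the 20 arrays singly with the animal as a random block gave 13 probes at day 7, 2 at day 21, 1 for the difference between days and 8 for the mean of both days. The mean of both days gave 134 on dye-swap arrays alone, and 1 each with no background correction, with the authors' deposited table, with array quality weights and with 1 probe for each gene. Day 7 gave 1 with no background correction and 1 with array quality weights. Scaling to the 75th percentile gave 6 for the level in sprouting neurons, day 21 against day 7. Leaving out 1 animal at a time gave 0 to 267 probes for that level, the highest without day 21 replicate 1, and 0 to 513 in non-sprouting neurons, where 513 came without day 21 replicate 1 and 1 without day 21 replicate 5. The 6 genes of the set in the fit and Bcl11b, Fezf2, Lamp5, Lhx9 and Tle4 gave 40 results. None of their 796 recomputed values passed, with a lowest adjusted p of 0.0545, and 50 changed sign.

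The sign changed as follows. With scan batch as a block, which leaves only the batch with both days, the difference between days was 0.065 for Cux2, 0.24 for Pou3f2, 0.12 for Cartpt and 0.039 for Lhx9. The level change in sprouting neurons was then -0.029 for Cux2 and 0.24 for Lhx2, and in non-sprouting neurons -0.094 for Cux2, 0.072 for Lhx2, 0.00092 for Pou3f3, -1.0 for Cartpt and 0.38 for Rorb. On dye-swap arrays alone Cux2 was 0.12 at day 21, 0.19 for the difference and 0.019 for the mean of both days, Lhx2 was -0.024 at day 21 and Cartpt 0.0037 at day 7. On forward arrays alone Pou3f2 was -0.022 at day 7. Array quality weights gave 0.019 for the Cux2 difference, 0.025 for Pou3f2 at day 21, 0.044 for Rorb at day 7 and -0.018 for the Rorb difference. The deposited table gave 0.039 for the Cux2 difference and 0.013 for Pou3f2 at day 21, and no background correction gave 0.0039 for Pou3f2 at day 21. The 75th percentile gave -0.12 for Pou3f3 levels in sprouting neurons.

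Leaving out 1 animal at a time moved these values across 0. Ratios ran from -0.064 to 0.11 for Lhx2 at day 21, -0.022 to 0.064 for Pou3f2 at day 7, -0.26 to 0.015 for Pou3f2 at day 21, -0.42 to 0.24 for Cartpt at day 7 and -0.15 to 0.10 for Rorb at day 7. Differences between days ran from -0.022 to 0.017 for Cux2 and -0.00087 to 0.32 for Rorb. Level changes in sprouting neurons ran from -0.099 to 0.027 for Lhx2, -0.064 to 0.27 for Pou3f2 and -0.087 to 0.14 for Rorb. In non-sprouting neurons they ran from -0.24 to 0.099 for Pou3f3, -0.21 to 0.45 for Cartpt and -0.25 to 0.049 for Rorb. The Cartpt ratio at day 21 kept its sign, from -1.38 with Agilent's own ratio to -0.46 on dye-swap arrays alone, and so did the Lhx2 ratio at day 7, from -0.23 on dye-swap arrays alone to -0.037 on forward arrays alone.

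Replicate numbers recur on both days but name separate animals. Same-numbered animals correlated at -0.197 to 0.0414 in their deviations from the day means, so the numbers paired nothing. With the replicate block, 0 probes passed for the difference between days or for either level. Dim signal limits Cux1 and Cux2 and some channels of Cartpt, Rorb and Pou3f2, and 5 animals a day limit every value.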
